A study of Mus musculus with 4 samples.

Results

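The members of the Notch pathway examined here were 10 genes of the 40091 listed over 4 single-nucleus RNA sequencing (snRNA-seq) libraries of mouse thalamus. They were chosen by symbol: the receptors Notch1, Notch2, Notch3 and Notch4, the ligands Jag1, Jag2, Dll1 and Dll4, and the target genes Hes1 and Hes5. All 10 were found in the files. Both groups were wild-type C57BL6 mice of 7 to 8 weeks. The NS group (replicates 1 and 2) received saline. The COL group (replicates 1 and 2) received type IV collagenase (Coll IV) in the right thalamus at 0.01 U per 10 nl, which digests the collagen of vessel walls so that they bleed. Tissue was taken 7 days after the injection, and each library pooled 3 mice, so differences between single mice cannot be seen. The comparison asks how the thalamus changes after a haemorrhage that leads to pain.

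Notch receptors are cut when a ligand on a neighbouring cell binds and pulls on them. The freed intracellular part enters the nucleus, joins the DNA-binding protein Rbpj and a Mastermind protein (Maml), and switches on targets such as the repressors Hes1 and Hes5. In the brain the pathway is known for keeping glial and neural progenitors undifferentiated, for its role in astrocytes and oligodendrocyte precursors (OPC), and, through Notch3, for the smooth muscle cells and pericytes of small vessels.

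Hes5 is a direct target of the Rbpj complex, which binds the letters TGGGAA, so its promoter is shown because Hes5 had the lowest fold change of the members over all nuclei. The window is chr4:154960673-154960922 of GRCm38.p6 on the plus strand (RefSeq), the 250 bases before the start of the gene, and the capitals mark TGGGAA or its reverse complement TTCCCA.
Hes5: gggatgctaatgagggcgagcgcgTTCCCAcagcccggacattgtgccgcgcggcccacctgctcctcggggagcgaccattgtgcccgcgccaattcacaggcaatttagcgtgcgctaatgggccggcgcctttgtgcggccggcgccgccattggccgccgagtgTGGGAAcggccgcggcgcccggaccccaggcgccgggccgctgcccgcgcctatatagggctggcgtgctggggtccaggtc
The match on the plus strand begins 82 bases before the start, and the match on the minus strand begins 226 bases before it. Windows were matched for 9 of the 10 members, all but Hes1. Of these, Hes5 was the member whose window held the motif, which 21.6% of the 32851 windows of that length held on either strand. A match is a description of the letters, not a bound site.

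In GENCODE M21 (GRCm38), Hes5 lies on chromosome 4 from 154960923 to 154962371 on the plus strand and spans 1.45 kb. Hes1 lies on chromosome 16 from 30064384 to 30067796 on the plus strand and spans 3.41 kb. Notch1 lies on chromosome 2 from 26457903 to 26516663 on the minus strand, and Jag1 on chromosome 2 from 137081456 to 137116644 on the minus strand. Notch3 lies on chromosome 17 from 32120820 to 32166852 on the minus strand. Hes5, Notch1 and Notch3 overlap annotated genes on the other strand. Whether the counting used strand is not given in the sources used here. It is therefore not known whether reads of these partners were counted with those of the genes. Notch4, Dll1 and Dll4 also overlap genes on the other strand. Notch1, Notch2 and Jag2 overlap genes on their own strand.

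The libraries held between 68746459 and 77557870 unique molecular identifiers each (UMIs, which mark single counted RNA molecules). After filtering, 32291 nuclei were left. The median per nucleus was 6489 and 4649 UMIs in the NS libraries and 8664 and 8691 in the COL libraries, so depth moved with the group. Clusters were named from marker genes, and each name stands for nuclei that look like that type. Neurons numbered 13411, oligodendrocytes 8815, astrocytes 2590, microglia 1580, OPC 1344 and vascular nuclei 173, while 800 macrophages and 148 T and NK cells came almost wholly from the COL group. Astrocytes numbered 1165 and 1051 in the NS libraries but 151 and 223 in the COL libraries. NS and COL glia lay mostly in separate clusters, so the same cell type was compared across clusters. The median was 3474 UMIs in the astrocyte cluster that was mainly NS and 6125 in the one that was mainly COL. Summed over its own list, each named type carried its markers in all libraries in which it was tested, and no astrocyte, microglia or OPC marker was at 0 in its own type. In microglia that sum was lower in both COL libraries than in both NS libraries. Between 0.522% and 0.766% of the barcodes of a library were also found in another library. Levels are CPM, a gene's UMIs over all UMIs of a cell type in a library, scaled to a common total, and a library counted as 1 replicate, with 2 in each group. Nothing says that libraries of a group were prepared on separate days, so p-values measure the spread between these libraries.

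**Figure D1:**
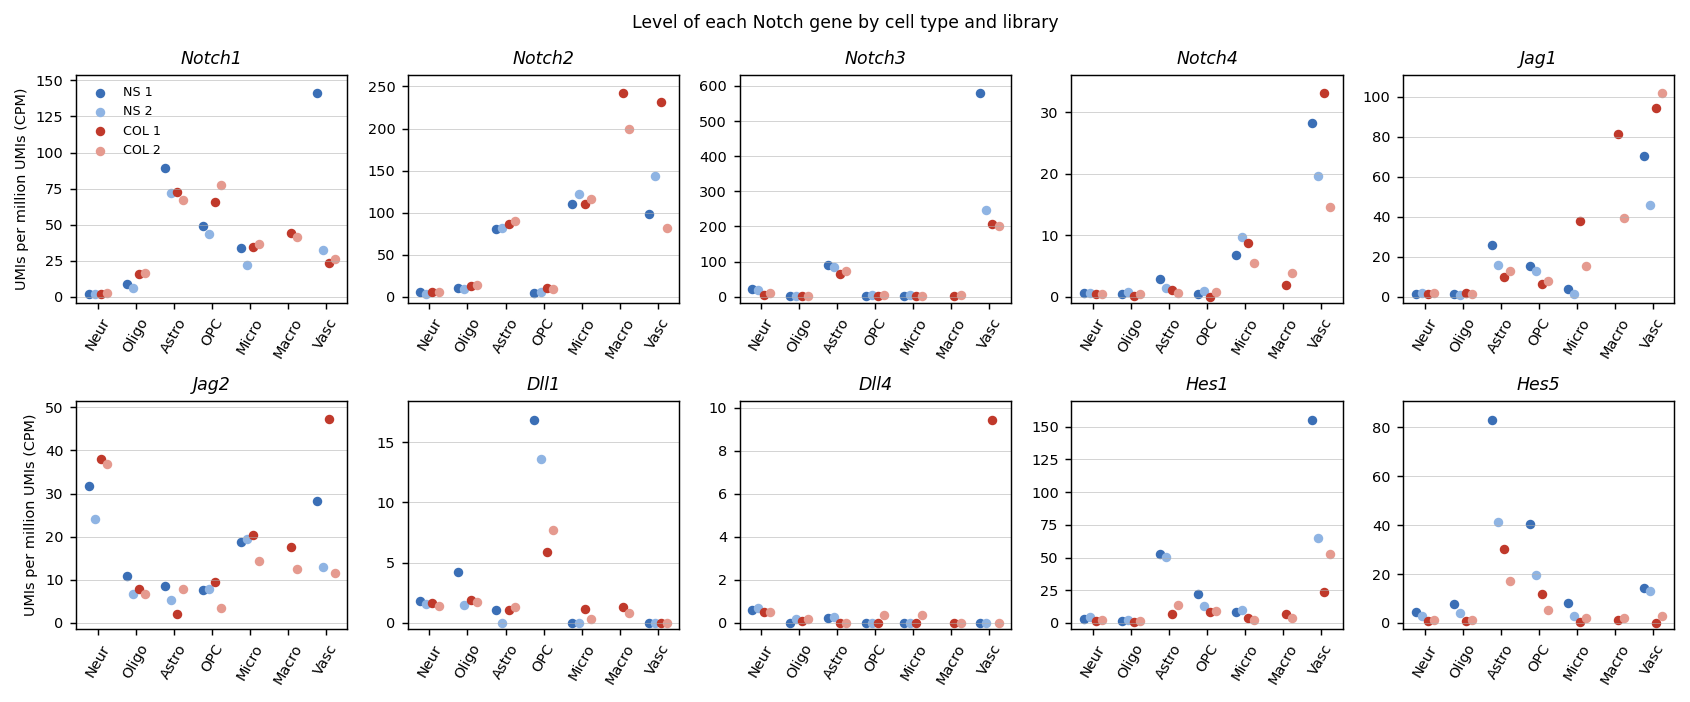
Level of each of the 10 genes as CPM (vertical axis, a scale of its own in each panel) in 7 cell types (horizontal axis), with 1 point per library and 20 or more nuclei behind each point. Hes1 and Hes5 sit lower in both COL libraries than in both NS libraries in astrocytes and OPC, and Jag1 sits higher in COL microglia.

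Among the receptors, Notch1 was found in most types but was low in neurons and oligodendrocytes. Its mean over the 4 libraries was 75.2 ± 9.51 CPM (SD, n = 4) in astrocytes, 58.98 ± 15.5 in OPC, 31.7 ± 6.40 in microglia, 11.7 ± 5.08 in oligodendrocytes and 2.13 ± 0.409 in neurons. The ranges of astrocytes and OPC overlapped, whereas those of microglia, oligodendrocytes and neurons followed each other without overlap. T and NK cells, measured in the COL libraries, stood at 59.1 ± 11.9 CPM (SD, n = 2), within the range of OPC. Macrophages of the same libraries stood at 42.6 ± 1.94 CPM. Vascular nuclei ran from 23.6 to 141 CPM and could not be ranked, and the mural nuclei among them were at 101 CPM (95% Poisson interval 63.5 to 153, counting error only). Notch2 was high in myeloid cells, T and NK cells, astrocytes and vessels. It stood at 221 ± 29.9 CPM (SD, n = 2) in macrophages of the COL group, 115 ± 5.93 (SD, n = 4) in microglia, 84.7 ± 4.06 in astrocytes and 139 ± 67.1 in vascular nuclei. COL T and NK cells had 94.2 ± 28.4 CPM (SD, n = 2), a range that held that of astrocytes. The vascular libraries ran from 81.5 to 231 CPM, so vascular nuclei could not be ranked against microglia or astrocytes.

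Notch3, the receptor of mural cells, had its highest mean in vascular nuclei, at 309 ± 181 CPM (SD, n = 4), followed by astrocytes at 78.3 ± 11.9 and neurons at 13.8 ± 7.61. Within the vascular class it was led by the 69 mural nuclei, with 171 UMIs or 787 CPM (95% Poisson interval 674 to 914, which covers counting error only). The 28 endothelial nuclei had 17 UMIs, 14 of them from COL replicate 1. The 66 fibroblast nuclei had 4 UMIs of Notch3, at 10.1 CPM (2.76 to 26.0). Fibroblasts instead carried Notch2, with 94 UMIs or 238 CPM (193 to 292), next to 27.6 CPM (10.1 to 60.1) in mural nuclei. Of the 94 UMIs, 45 came from the 11 nuclei of COL replicate 1. NS replicate 2 stood at 271 CPM and COL replicate 2 at 115 CPM. The intervals of mural nuclei and fibroblasts did not overlap for either receptor, in opposite order. Notch4, a receptor of endothelial cells, had 11 UMIs in 28 endothelial nuclei, at 85.0 CPM (42.4 to 152), with 7 of these UMIs from the 5 nuclei of COL replicate 1, and lay at 7.68 ± 1.90 CPM (SD, n = 4) in microglia.

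Among the ligands, Jag2 was mainly found in neurons, which held 71.0% of its UMIs. Its level there was 32.7 ± 6.32 CPM (SD, n = 4), above every library of oligodendrocytes, astrocytes, OPC and microglia. Vascular nuclei overlapped with neurons, at 25.0 ± 16.6 CPM, and had the higher mean when nuclei were typed by their own markers or when those past the gates of 2 types were left out, which left 17 vascular nuclei in COL replicate 1. Endothelial nuclei held 11 UMIs of Jag2, 10 of them from COL replicate 1. Jag1 had its highest means in vascular nuclei, at 78.1 ± 25.4 CPM (SD, n = 4), and in COL macrophages, at 60.3 ± 29.9 CPM (SD, n = 2). Dll1, a ligand of progenitors, was highest in OPC, at 11.01 ± 5.11 CPM (SD, n = 4), and no UMI of it was found in 173 vascular nuclei. Dll4, the ligand of sprouting endothelium, was below 1 CPM in every library of neurons, glia and microglia, and its level could not be compared between groups in any single type but neurons.

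Both targets had their highest level outside the vessels in astrocytes. Hes5 stood at 42.9 ± 28.6 CPM (SD, n = 4) there, at 19.3 ± 15.3 in OPC and at 2.33 ± 1.82 in neurons. Hes1 stood at 31.0 ± 24.3 CPM in astrocytes and 13.01 ± 6.51 in OPC, and at 74.1 ± 56.9 in vascular nuclei.

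With each nucleus thinned to 1000 UMIs, Hes5 was found in 8.53% and 3.54% of NS astrocytes and in 1.33% and 1.35% of COL astrocytes. Hes1 was found in 6.03% and 5.46% of NS astrocytes and in 0% and 0.897% of COL astrocytes. Before thinning, 16.5% of astrocytes had a UMI of Hes5 and 13.98% had one of Hes1, at a median of 3674.5 UMIs. T and NK cells, in which neither target marks the cell type, had 0 of 146 nuclei with a UMI of either at the same depth, which allows a share of up to 2.05%. Their median was 2952.5 UMIs before thinning. Thinning left out 169 nuclei with fewer UMIs, 11 of them astrocytes.

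In astrocytes, both target genes fell in the COL group while the receptors did not pass the test. Hes1 was at 53.0 and 50.6 CPM in the NS libraries and at 6.50 and 13.7 CPM in the COL libraries. The groups did not overlap, and Hes1 fell by 2.17 on the log2 scale (SE 0.297, adjusted p = 0.000838, edgeR). Hes5 was at 83.1 and 41.4 CPM in the NS libraries and at 30.3 and 16.98 CPM in the COL libraries. It fell by 1.38 (SE 0.346, adjusted p = 0.0188, edgeR) without overlap, although NS replicates 1 and 2 lay further apart than the nearest libraries of opposite groups. In UMIs per nucleus Hes5 overlapped between groups, at 0.3227 and 0.1408 in NS and at 0.1854 and 0.1166 in COL. Of 7 members tested, 2 were called, both lower, where 8.49% of the 13791 genes tested were called lower, 6.61% higher and 15.1% in either direction. The median log2 fold change of these members was -0.25, next to -0.03 over all genes.

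The receptors Notch1, Notch2 and Notch3 had smaller fold changes in the same astrocytes than Hes1 and Hes5. Notch1 was at 89.0 and 72.1 CPM in NS and at 72.6 and 67.3 CPM in COL (log2 fold change -0.12, SE 0.184, adjusted p = 0.697, edgeR). Notch2 was at 80.9 and 81.9 CPM in NS and at 86.6 and 89.5 CPM in COL, with 0.20 (SE 0.173, adjusted p = 0.473, edgeR). Notch3 was at 90.6 and 84.9 CPM in NS and at 63.9 and 73.8 CPM in COL, with -0.25 (SE 0.178, adjusted p = 0.369, edgeR). In CPM the Notch1 libraries overlapped between groups, while those of Notch2 and Notch3 did not. For both, the nearest libraries of opposite groups lay further apart than libraries of the same group. The mean of Notch3 was 87.77 CPM in NS and 68.85 CPM in COL. In UMIs per nucleus, which are not scaled for depth, these receptors were higher in both COL libraries than in both NS libraries. Notch3 was at 0.352 and 0.289 in NS and at 0.391 and 0.507 in COL, the opposite order to CPM. Notch1 was at 0.346 and 0.246 in NS and at 0.444 and 0.462 in COL. Notch2 was at 0.314 and 0.279 in NS and at 0.530 and 0.614 in COL. Jag1 was at 25.9 and 15.9 CPM in NS and at 9.75 and 13.1 CPM in COL, with -0.75 (SE 0.349, adjusted p = 0.167, edgeR).

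**Figure D2:**
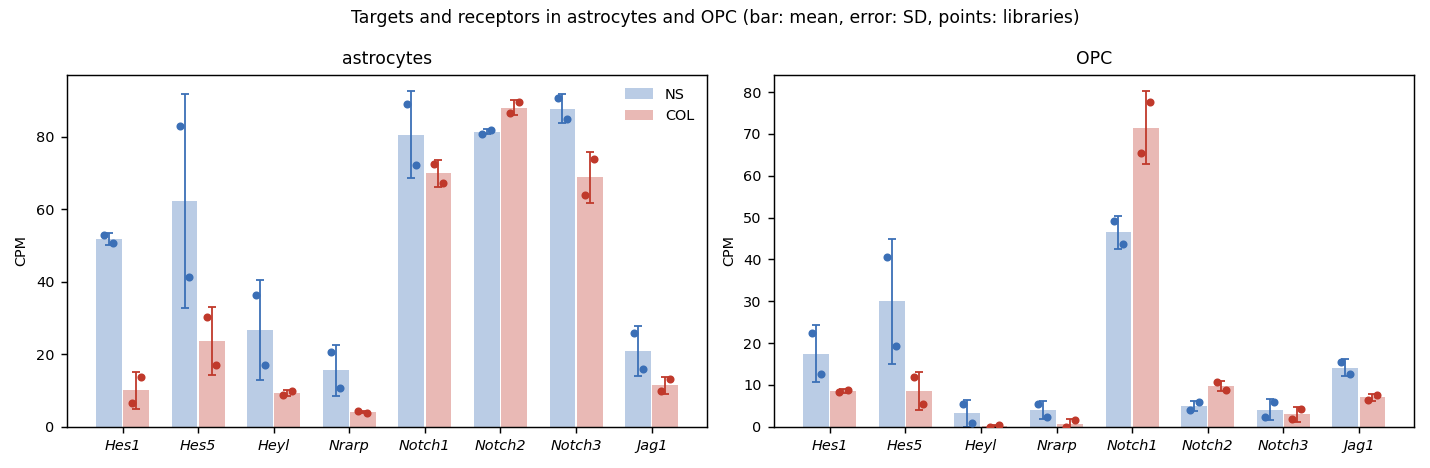
CPM (vertical axis) of the targets Hes1, Hes5, Heyl and Nrarp, the receptors Notch1, Notch2 and Notch3 and the ligand Jag1 in astrocytes (left) and OPC (right). Bars are means of 2 libraries per group, error bars the SD and points the libraries. In astrocytes the 4 targets are lower in both COL libraries than in both NS libraries, as are Notch3 and Jag1, while Notch1 overlaps between groups and Notch2 is higher.

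Among further Notch targets, Heyl and Nrarp fell in astrocytes. Heyl, a repressor of the Hey family, was at 36.5 and 17.04 CPM in NS and at 8.66 and 9.80 CPM in COL, and fell by 1.44 (SE 0.414, adjusted p = 0.0343, edgeR). Nrarp, which feeds back on Notch activity, was at 20.6 and 10.6 CPM in NS and at 4.33 and 3.92 CPM in COL, and fell by 1.85 (SE 0.496, adjusted p = 0.025, edgeR). They were 2 of 6 tested genes on a list of 9 other target genes, where 8.49% of all genes tested were called lower, and none of the 6 rose, where 6.61% were called higher. Neither was called without NS replicate 1 (adjusted p = 0.341 for Heyl and 0.254 for Nrarp, edgeR), Heyl was not called with DESeq2 (adjusted p = 0.11), which gave no adjusted p for Nrarp, and Nrarp was not called without COL replicate 2 (adjusted p = 0.0594, edgeR).

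Short genes were lower as a class in the COL group. Of the 1838 genes under 5 kb tested in astrocytes, the median log2 fold change was -0.53 and 20.8% were called lower, next to 0.39 and 2.64% of the 2313 genes over 100 kb. Hes1 and Hes5 are both in the short class. Of the genes of that class, 4.14% had a lower fold change than Hes1 and 20.3% a lower one than Hes5. In OPC, 6.29% of genes under 5 kb had a lower fold change than Hes5. The part of gene length in these results was not tested. The call of Hes5 in astrocytes was lost without NS replicate 1 (log2 fold change -0.82, adjusted p = 0.142, edgeR) and without COL replicate 2 (adjusted p = 0.0603, edgeR), whereas Hes1 was called under all 13 alternatives.

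In OPC, Hes5 fell and the receptor Notch1 rose. Hes5 was at 40.6 and 19.4 CPM in NS and at 11.8 and 5.38 CPM in COL. It fell by 1.85 (SE 0.425, adjusted p = 0.0112, edgeR), without overlap between the groups in CPM. Notch1 was at 49.2 and 43.7 CPM in NS and at 65.4 and 77.6 CPM in COL (log2 fold change 0.66, SE 0.176, adjusted p = 0.0214, edgeR), again without overlap. In UMIs per nucleus Hes5 overlapped between the groups, at 0.2225 and 0.0928 in NS and at 0.0948 and 0.0464 in COL. Of 7 members tested in OPC, 1 rose and 1 fell, where 8.15% of 13367 genes rose and 10.1% fell (18.3% in all).

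Of the OPC clusters, cluster 11 held at least 20 nuclei of every library, with 92 and 113 NS nuclei and 209 and 294 COL nuclei, whereas cluster 13 held 308 and 318 NS nuclei but 2 and 8 COL nuclei. In cluster 11, 31.8% of nuclei also passed the gate of another type, next to 2.20% in cluster 13. Its leading gene was 9630013A20Rik, and nuclei with a UMI of that gene were left out in the alternative without committed precursors. Within cluster 11 Notch1 was at 44.5 and 36.9 CPM in NS and at 65.6 and 78.0 CPM in COL. Hes5 was at 22.9 and 16.4 CPM in NS, from 17 and 12 UMIs. In COL it was at 11.8 and 5.49 CPM, from 20 and 14 UMIs. These genes kept their direction within the cluster, which was not tested on its own, but others did not keep theirs or lay closer together. Hes1 was at 9.43 and 9.58 CPM in NS and at 8.28 and 9.01 CPM in COL. Jag1 was at 13.5 and 4.11 CPM in NS and at 6.50 and 7.84 CPM in COL, and overlapped. Notch2 was at 10.8 and 15.1 CPM in NS and at 10.6 and 9.01 CPM in COL, the opposite order to that over all OPC.

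The ligands Dll1 and Jag1 and the target Hes1 lay lower in both COL libraries of OPC without passing the test, while the ligand Jag2 overlapped between groups, at 7.75 and 7.76 CPM in NS and at 9.42 and 3.46 CPM in COL. Dll1 was at 16.9 and 13.6 CPM in NS and at 5.89 and 7.69 CPM in COL (log2 fold change -1.10, SE 0.362, adjusted p = 0.0526, edgeR). Jag1 was at 15.5 and 12.6 CPM in NS and at 6.48 and 7.69 CPM in COL (-0.93, SE 0.362, adjusted p = 0.094, edgeR). Hes1 was at 22.3 and 12.6 CPM in NS and at 8.25 and 8.84 CPM in COL (-0.99, SE 0.368, adjusted p = 0.0814, edgeR). The groups did not overlap in CPM for any of them. In UMIs per nucleus the groups overlapped for each. Dll1 was at 0.0925 and 0.0650 in NS and at 0.0474 and 0.0662 in COL. Jag1 was at 0.085 and 0.0603 in NS and at 0.0521 and 0.0662 in COL. Hes1 was at 0.1225 and 0.0603 in NS and at 0.0664 and 0.0762 in COL. The number of members called depended on the setting, with 6 at a cluster resolution of 1.2, 1 with DESeq2, 1 without NS replicate 2 and 0 without NS replicate 1. Notch1 was not called with DESeq2 (adjusted p = 0.153) or without NS replicate 1 (adjusted p = 0.0654, edgeR), NS replicate 2 (adjusted p = 0.124) or COL replicate 2 (adjusted p = 0.0532), and Hes5 was lost without NS replicate 1 (adjusted p = 0.0819, edgeR).

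Mature oligodendrocytes showed the same pair at lower levels. Notch1 was at 8.82 and 5.96 CPM in NS and at 15.5 and 16.4 CPM in COL (log2 fold change 1.21, SE 0.247, adjusted p = 0.0138, edgeR). Hes5 was at 7.60 and 4.00 CPM in NS and at 0.848 and 1.18 CPM in COL, from 56 and 45 UMIs and from 8 and 12 UMIs. It fell by 2.38 (SE 0.452, adjusted p = 0.0115, edgeR). Neither gene overlapped between groups. Of 8 members tested, 1 rose and 1 fell, where 9.93% of 17132 genes rose and 12.2% fell (22.1% in all). Notch1 was not called without NS replicate 2 (adjusted p = 0.096, edgeR).

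Markers of astrocytes moved with Hes5 in oligodendrocytes. The summed level of 11 astrocyte markers was 495 and 418 CPM in the NS oligodendrocytes and 245 and 283 CPM in the COL oligodendrocytes, and 9 of the 11 were lower in both COL libraries than in both NS libraries. In OPC the same sum was 1064 and 983 CPM in NS and 754 and 807 CPM in COL, and 7 of 11 were lower. None of the 11 was at 0 in either type. Their part in the lower Hes5 was not tested. Markers of other types moved with Notch1 in oligodendrocytes. The 10 OPC markers summed to 157 and 135 CPM in NS and to 218 and 245 CPM in COL, with 4 of them higher and 3 lower in both COL libraries. The 11 macrophage markers summed to 4.88 and 7.29 CPM in NS and to 54.5 and 116 CPM in COL, and all 8 tested rose. None of either list was at 0, and their part in the higher Notch1 was not tested.

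In microglia, the ligand Jag1 rose. It was at 4.04 and 1.39 CPM in the NS libraries, from 3 and 1 UMIs, and at 37.8 and 15.5 CPM in the COL libraries, from 65 and 42 UMIs. The groups did not overlap, and the ratio of the pooled levels was 8.82 (95% interval 3.35 to 33.0, counting error only). The log2 fold change was 3.26 (SE 0.733, adjusted p = 0.00661, edgeR), and it was called under all 14 alternatives, between 2.51 and 4.18. Of 5 members tested, Jag1 alone was called, where 14.2% of 11984 genes rose and 27.8% were called in either direction.

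Both kinds of COL microglia carried Jag1. The main cluster of COL microglia was at 32.2 and 14.01 CPM in the COL replicates 1 and 2, and the dividing cluster at 51.6 and 18.9 CPM. Macrophages of the same libraries were at 81.4 and 39.1 CPM. In each of these clusters COL replicate 1 was the higher library. At 1000 UMIs per nucleus, Jag1 was found in 0.314% and 0.292% of NS microglia and in 2.43% and 1.29% of COL microglia, next to 0 of 146 T and NK cells and 0.134% of neurons. Before thinning these shares were 3.54% of microglia, at a median of 3147.5 UMIs, and 1.92% of neurons, at a median of 10703 UMIs. The summed level of 11 macrophage markers in microglia was 168 and 299 CPM in NS and 869 and 966 CPM in COL, with 9 of 11 higher in both COL libraries and none at 0. In macrophages themselves this sum was 4124 and 3937 CPM. The 10 microglia markers summed to 7301 and 7193 CPM in NS microglia and to 4655 and 4768 CPM in COL microglia. Of these, 8 were lower and 1 higher in both COL libraries, and 7 were called lower and 1 higher. The part of either marker list in the higher Jag1 was not tested.

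The receptors of microglia did not pass the test. Notch2 was at 110 and 123 CPM in NS and at 110 and 116 CPM in COL (log2 fold change 0.01, SE 0.183, adjusted p = 0.961, edgeR), the smallest change among the 51 comparisons of members made. Its direction turned under plain UMI totals (-0.05). Notch1 was at 33.7 and 22.3 CPM in NS and at 34.3 and 36.6 CPM in COL (0.40, SE 0.295, adjusted p = 0.345, edgeR).

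**Figure D3:**
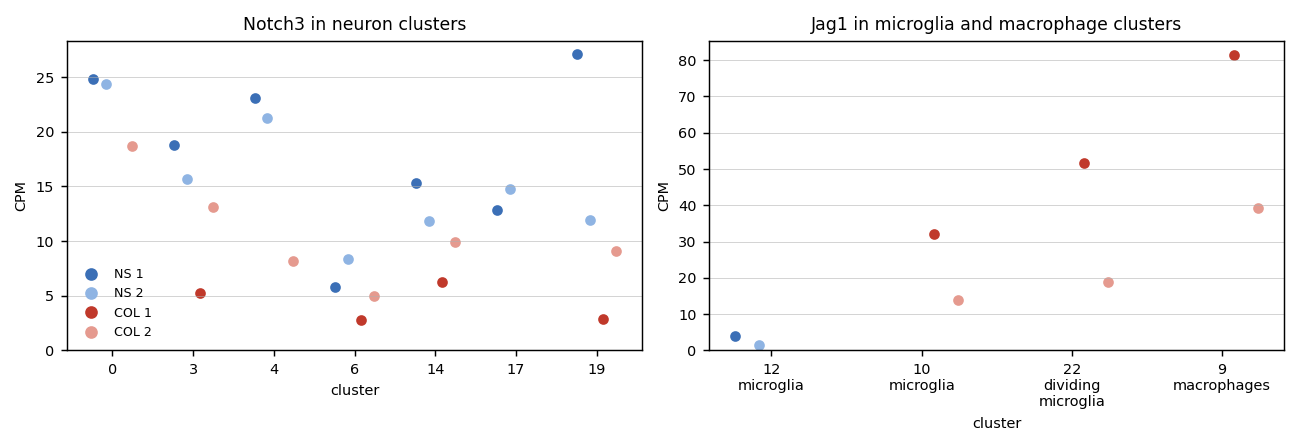
CPM by cluster and library for Notch3 in the 7 neuron clusters (left) and for Jag1 in clusters of microglia and macrophages (right), 1 point per library with at least 20 nuclei in the cluster. Notch3 is lower in both COL libraries in clusters 3, 6, 14 and 19, in which every library has a point. Jag1 is below 5 CPM in NS microglia and above 10 CPM in every COL cluster.

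In neurons no gene of 23243 was called by edgeR (0.0% of those tested), with 6725 genes (28.9%) at an unadjusted p under 0.05, and 2462 of 20989 genes (11.7%) called by DESeq2. Notch3, Hes5 and Jag2 were the members at an unadjusted p under 0.05. Notch3 was at 20.9 and 18.7 CPM in NS and at 4.14 and 11.4 CPM in COL (log2 fold change -1.23, SE 0.389, adjusted p = 0.12, edgeR). The groups did not overlap, and COL replicate 1 was the lowest. Without COL replicate 2 the change was -2.06. Notch3 was called under 3 of 15 alternatives, among them DESeq2 (adjusted p = 0.026) and no filter on low counts (adjusted p = 4.85e-06, edgeR).

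Neuron clusters differed in Notch3 and in their share of each group. In cluster 3, Notch3 was at 18.8 and 15.7 CPM in NS and at 5.21 and 13.2 CPM in COL. In cluster 6 it was at 5.82 and 8.35 CPM in NS and at 2.74 and 5.01 CPM in COL. Clusters 14 and 19 also had both COL libraries below both NS libraries. The groups overlapped in the neurons set apart, which did not enter the fit of neurons, at 9.04 and 13.98 CPM in NS and at 4.20 and 9.34 CPM in COL. The largest neuron cluster was at 24.8 and 24.4 CPM in NS and held 1998 and 2652 NS nuclei but 8 and 51 COL nuclei. Restricted to neuron clusters with 50 nuclei or more in every library, the change was -0.48 (adjusted p = 0.562, edgeR), a restriction chosen after the data had been seen.

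Hes5 in neurons was at 4.64 and 2.91 CPM in NS and at 0.647 and 1.12 CPM in COL, with -1.94 (SE 0.375, adjusted p = 0.0959, edgeR). It was called under 3 of 15 alternatives, among them DESeq2 (adjusted p = 0.00144) and no filter on low counts (adjusted p = 6.99e-06, edgeR). The 11 astrocyte markers summed to 349 and 368 CPM in NS neurons and to 334 and 245 CPM in COL neurons, with 7 of 11 lower in both COL libraries than in both NS libraries. None of them was at 0 and their part was not tested. Jag2 was at 31.8 and 24.1 CPM in NS and at 37.9 and 36.9 CPM in COL (log2 fold change 0.58, SE 0.161, adjusted p = 0.103, edgeR). Hes5, Notch3 and Jag2 did not overlap between groups. In the neuron clusters found in every library, the change of Jag2 was 0.21 (adjusted p = 0.595, edgeR).

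In vascular nuclei none of 4 members tested was called, where 2.57% of 4512 genes were (0.709% higher and 1.86% lower). Notch3 was at 579 and 248 CPM in NS and at 208 and 201 CPM in COL (log2 fold change -1.003, SE 0.397, adjusted p = 0.204, edgeR). Hes1 was at 155 and 65.2 CPM in NS and at 23.6 and 52.4 CPM in COL (-1.34, SE 0.57, adjusted p = 0.239, edgeR). The summed mural markers were at 11030 CPM in NS replicate 1 and between 3747 and 4038 CPM in the other 3 libraries, and this library held 24 of the 69 mural nuclei. It was also the highest in Notch3. The 11 astrocyte markers summed to 3164 and 3125 CPM in NS vascular nuclei and to 2287 and 1681 CPM in COL vascular nuclei, with none at 0. The part of either marker list in these values was not tested. DESeq2 called neither gene. Over the alternatives the log2 fold change of Notch3 ran from -1.46, without NS replicate 2, to -0.39.

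**Figure D4:**
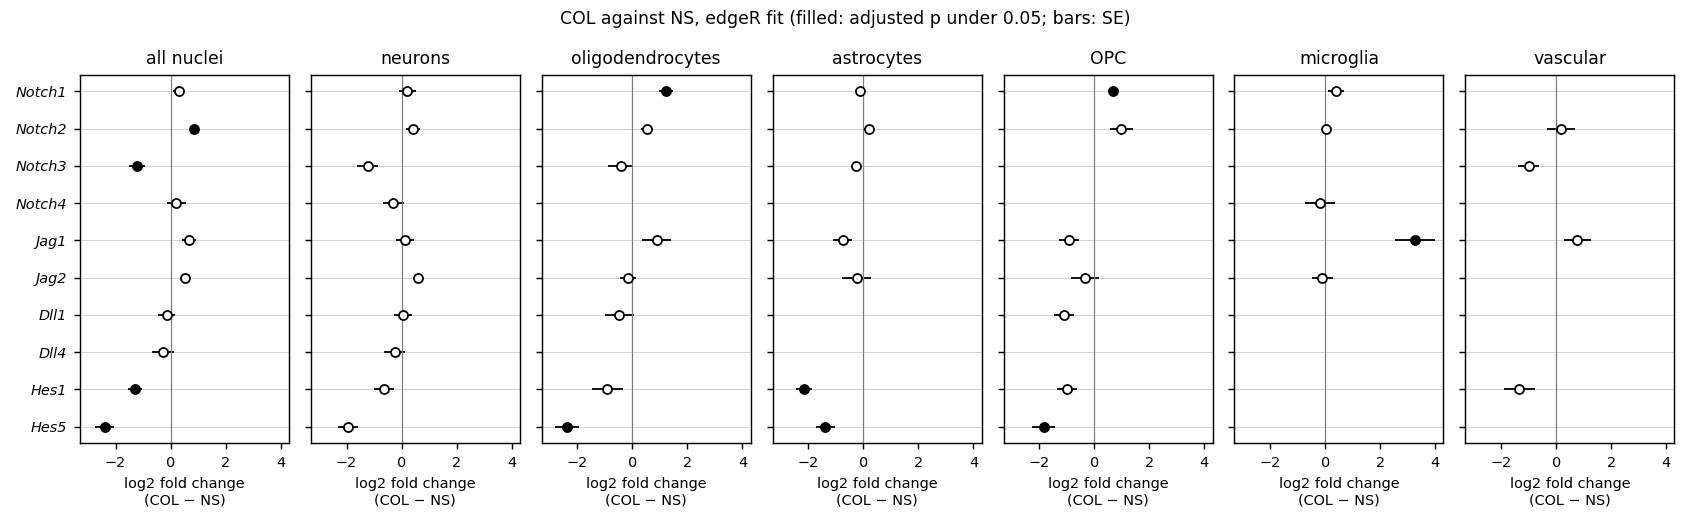
Log2 fold change of the COL against the NS group (horizontal axis) for each member tested in all nuclei and in 6 cell types, with bars for the SE. Filled points passed an adjusted p of 0.05. Filled points of Hes5 lie below 0 in all nuclei, oligodendrocytes, astrocytes and OPC, and the filled point of Jag1 in microglia lies furthest to the right.

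The size of the COL effect was then compared between the 6 cell types in a single fit with the library as a block. It differed for Notch1 (adjusted p = 0.000328) and Jag1 (adjusted p = 0.000469), by edgeR's quasi-likelihood test over 18285 genes, of which 15.7% were called. Among the types in which Notch1 was also tested singly, it ran from -0.12 in astrocytes to 1.21 in oligodendrocytes. In vascular nuclei, which entered this fit but were too low in Notch1 for a fit of their own, it was at 141 and 32.6 CPM in NS and at 23.6 and 26.2 CPM in COL. Those levels came from 10 and 5 UMIs in NS and 5 and 9 UMIs in COL. Without the vascular class, tried after the data had been seen, Notch1 and Jag1 were called as well (adjusted p = 0.000293 and 0.000879, edgeR). Jag1 ran from -0.93 in OPC to 3.26 in microglia. For Hes5 (adjusted p = 0.644, edgeR), Hes1 (adjusted p = 0.161) and Notch3 (adjusted p = 0.102) no difference between types was called, which does not show that the types changed alike. Dll4 was too low to enter this fit.

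Summed over all nuclei, 4 of the 10 members were called, with 3 lower and 1 higher, where 4.43% of 25570 genes were called lower and 5.02% higher (9.45% in all). Hes5 was at 11.5 and 5.98 CPM in NS and at 1.27 and 1.70 CPM in COL, and fell by 2.40 (SE 0.338, adjusted p = 0.0141, edgeR). Hes1 was at 7.30 and 7.19 CPM in NS and at 2.09 and 3.28 CPM in COL, and fell by 1.30 (SE 0.251, adjusted p = 0.0332, edgeR). Notch3 was at 22.3 and 20.1 CPM in NS and at 5.38 and 11.4 CPM in COL, and fell by 1.22 (SE 0.285, adjusted p = 0.0479, edgeR). Notch2 was at 13.2 and 11.8 CPM in NS and at 18.7 and 22.5 CPM in COL (log2 fold change 0.87, SE 0.156, adjusted p = 0.0283, edgeR). None of the 4 overlapped between groups.

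A sum over all nuclei cannot tell fewer nuclei of a type from less RNA per nucleus. Macrophages supplied none of the Notch2 UMIs in the NS libraries and 28.5% and 30.5% of them in the COL libraries. With the cell types weighted to the NS makeup, the change of Notch2 was 0.32, next to 0.72 from plain CPM. Jag1 went from 0.51 to -0.05 in the same way. The weighted change was -1.79 for Hes5, next to -2.56, -1.32 for Hes1, next to -1.43, and -0.92 for Notch3, next to -1.34. These values have no error or test, and the part of the cell type makeup in the changes was not tested. With plain UMI totals, which moved the median of all genes by -0.15, Hes5 alone was called. Without NS replicate 1 and without NS replicate 2, Hes5 and Notch3 alone were called. Notch3 was not called once nuclei past the marker gates of 2 types were left out (adjusted p = 0.0542, edgeR).

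Other pathway genes, a list of 47, were called in each fit except those of neurons and vascular nuclei. Of the 7 genes of the nuclear complex, 5 rose in all nuclei, 3 in oligodendrocytes, 2 in OPC and 1 in astrocytes, while in microglia 2 rose and 1 fell. Of all genes tested, 5.02% rose in all nuclei, 9.93% in oligodendrocytes, 8.15% in OPC and 6.61% in astrocytes. In microglia, 14.2% rose and 13.7% fell. Genes over 100 kb rose more often, at 7.38% in all nuclei, 32.1% in oligodendrocytes, 21.2% in OPC, 26.1% in astrocytes and 38.9% in microglia. The spans of the pathway genes are not given here, and the part of gene length in their changes was not tested. The count of 5 in all nuclei became 0 with plain UMI totals, without NS replicate 1 and without NS replicate 2, and 2 (Maml3 and Rbpj) without COL replicate 1 or with nuclei past the gates of 2 types left out. In oligodendrocytes, Maml3 alone of these genes was called without NS replicate 1 or without NS replicate 2. In OPC the count became 0 without NS replicate 1, and 1 (Maml3) without NS replicate 2, with DESeq2 or with nuclei past 2 gates left out. Maml3, a coactivator, was at 75.1 and 71.4 CPM in NS oligodendrocytes and at 197 and 186 CPM in COL oligodendrocytes (log2 fold change 1.47, SE 0.156, adjusted p = 0.00263, edgeR). Maml3 also rose in OPC (0.85, adjusted p = 0.00568) and astrocytes (0.74, adjusted p = 0.0363). Its levels in both COL libraries were above both NS libraries in all 3 types. In microglia the order was opposite, at 1912 and 1614 CPM in NS and at 1424 and 1081 CPM in COL (-0.43, adjusted p = 0.088, edgeR). Without NS replicate 1 it was not called in OPC (adjusted p = 0.0768, edgeR) or astrocytes (adjusted p = 0.326), and in astrocytes it was also lost without COL replicate 2 (adjusted p = 0.168), with plain totals (adjusted p = 0.062) and with DESeq2 (adjusted p = 0.144).

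Rbpj, the DNA-binding partner of the cleaved receptor, rose in microglia from 129 and 98.9 CPM to 257 and 251 CPM (log2 fold change 1.21, SE 0.178, adjusted p = 0.000603, edgeR). Microglia also had lower Maml2 (-0.83, adjusted p = 0.00265, edgeR), Id4 (-2.21, adjusted p = 0.00359), Numb, an inhibitor of Notch (-0.76, adjusted p = 0.00996), and Mfng, which adds sugars to the receptors (-1.24, adjusted p = 0.00953). In all, 2 of 36 pathway genes tested rose in microglia and 5 fell, where 14.2% of all genes tested rose and 13.7% fell, so the first share was below the background and the second near it. Without NS replicate 1, Id4 (adjusted p = 0.0854, edgeR) and Numb (adjusted p = 0.144) were not called. Without NS replicate 2 Maml2 was not called (adjusted p = 0.0763, edgeR), and with DESeq2 Mfng was not (adjusted p = 0.0617).

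Psenen, a subunit of the gamma-secretase that frees the intracellular part of the receptor, fell in oligodendrocytes, astrocytes and OPC. It was at 26.7 and 27.9 CPM in NS astrocytes and at 8.66 and 11.8 CPM in COL astrocytes (log2 fold change -1.29, SE 0.312, adjusted p = 0.0159, edgeR). In OPC it fell by 1.49 (adjusted p = 0.00952, edgeR) and in oligodendrocytes by 1.36 (adjusted p = 0.0226, edgeR). Without NS replicate 2 it was not called in astrocytes (adjusted p = 0.0634, edgeR) or OPC (adjusted p = 0.055), nor with DESeq2 (adjusted p = 0.103 and 0.0827). The other 8 genes of receptor cleavage were not called in these types. So 1 of 9 fell in each, where 12.2% of all genes tested fell in oligodendrocytes, 8.49% in astrocytes and 10.1% in OPC. This count was near the background. Of genes under 5 kb, 21.8% fell in oligodendrocytes, 20.8% in astrocytes and 23.3% in OPC, and the part of gene length was not tested. In oligodendrocytes, Hes3 rose (2.93, adjusted p = 0.00824, edgeR) while Id4 fell (-1.28, adjusted p = 0.0179), which was not called without NS replicate 1 (adjusted p = 0.118). In OPC, Neurl1b, a ligand ubiquitin ligase, rose (2.02, adjusted p = 0.0157, edgeR), which was not called without COL replicate 1 or with DESeq2 (adjusted p = 0.0743). It was also not called once committed precursors were left out, an alternative added after the data had been seen.

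The genes most like a member were found by Pearson's r of log2(CPM + 1) over 23 profiles, each a cell type in a library or a vascular subtype, among 13652 genes. They are given for members with a mean of at least 5 CPM, which leaves out Dll1 and Dll4. The profiles share libraries and depth, so r is a description. Hes5 was most like Ednrb (r = 0.913) and Gpr37l1 (r = 0.913), receptors of astrocytes, and Fads2 (r = 0.904). Hes1 was most like Mxra7 (r = 0.879), and Notch1 most like Mcur1 (r = 0.850). Notch2 was most like Gm42819 (r = 0.929), which lies within Notch2 on the same strand. Notch3 was most like Ddit4l (r = 0.904), Jag1 most like Antxr2 (r = 0.892) and Jag2 most like Ipo11 (r = 0.915). Notch4 was most like Slc31a1 (r = 0.930), followed by Itgb1 (r = 0.920) and the endothelial gene Eng (r = 0.917).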

How the data were processed

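Nuclei of 4 thalamus libraries, 2 of the NS group and 2 of the COL group, were analysed. The deposited files hold raw UMI counts per gene and nucleus, which the authors made from the reads. The submitters' processing notes name Cell Ranger 1.2.0 and mm10, and whether strand was used in counting is not given in the sources used here. Nuclei with at least 50 genes and at most 5% mitochondrial UMIs were kept. Clustering used Seurat 5.3.0 (15 principal components, 5000 variable genes without the Notch pathway genes, resolution 0.8), which gave 30 clusters. Clusters were named from fixed marker lists where at least 50% of their nuclei passed the gate of a type. The thresholds of these gates were set after the clusters had been seen. Mixed clusters and 1566 neurons whose clusters were set apart entered the sum over all nuclei but not the fits of single types. No doublet caller was run. Instead, the 5.84% of nuclei that passed the gates of 2 types were kept, and were left out in an alternative. By type the share was 21.4% in vascular nuclei, 11.4% in OPC, 2.56% in neurons and 2.28% in microglia. It was 0.734% in astrocytes and 0.329% in oligodendrocytes.

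For each cell type with at least 20 nuclei in every library, the counts of a library were added up and tested with edgeR 4.0.16 in R 4.3.3 (quasi-likelihood test, TMM scaling, filterByExpr). P-values were adjusted by Benjamini-Hochberg over all genes tested in that fit, with a threshold of 0.05. One fit over the 6 types with the library as a block tested whether the COL effect differed between types. CPM values use plain UMI totals, whereas fold changes use TMM. Intervals are exact, at 95%, and cover counting error only. All 10 members are described, and of the other pathway genes some of those called, at most 5 per fit, are named. Among those not described are Dlk1, which fell in astrocytes, and in OPC Dlk2, which fell, and Spen, which rose. The members and lists were chosen with earlier results of these data known. Scripts were tested on simulated data. Alternatives were DESeq2 1.42.0, plain totals, no filter on low counts, other resolutions, typing each nucleus by its own markers, a higher gene minimum, a replicate block and leaving out each library.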

Additional observations from a re-analysis of the deposited data

Results flagged for a closer look

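The COL effect on Notch1 differed between cell types (adjusted p = 0.000328, edgeR's quasi-likelihood test of the group by cell type terms). Its log2 fold change was 1.21 in oligodendrocytes, 0.66 in OPC, 0.40 in microglia, 0.21 in neurons and -0.12 in astrocytes. Vascular nuclei also entered this test, but Notch1 was too low there for a fit of that type alone, at 141 and 32.6 CPM in NS and 23.6 and 26.2 CPM in COL. These values rest on 10 and 5 UMIs in NS and 5 and 9 in COL. Without the vascular class, tried after the data had been seen, the adjusted p was 0.000293 (edgeR).

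The COL effect on Jag1 also differed between cell types (adjusted p = 0.000469, the same edgeR test). Its log2 fold change was 3.26 in microglia, 0.88 in oligodendrocytes, 0.77 in vascular nuclei, 0.12 in neurons, -0.75 in astrocytes and -0.93 in OPC. Without the vascular class, the adjusted p was 0.000879 (edgeR).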

How the results depend on the processing

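Of 666 recomputed values for the 51 member comparisons, 604 counted as unchanged, which for tested values means the same direction and side of the threshold. Values at the NS makeup have no p-value and counted as unchanged where they lay within the SE of the main fold change. Comparisons not called in the main fit counted as unchanged where they stayed uncalled in the same direction. The 604 therefore does not measure how firm the calls were. Of 464 recomputed values that did not leave out a library, 5 lost a call and 14 gained one. Hes1 in astrocytes, Hes5 in oligodendrocytes and Jag1 in microglia were called under every alternative run.

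With plain UMI totals, 1 member and 1 pathway gene were called in all nuclei. With DESeq2, 2 members and 3 pathway genes were called in neurons, 1 pathway gene in astrocytes, 1 member and 1 pathway gene in OPC and 4 pathway genes in microglia. Without a filter on low counts, 3 members and 7 pathway genes were called in neurons, 15 pathway genes in all nuclei and 13 in oligodendrocytes. With nuclei past 2 gates left out, 5 pathway genes were called in all nuclei and 3 in OPC. At resolution 1.2, 6 members were called in OPC. After the data had been seen, further alternatives were added: without committed precursors 2 pathway genes were called in OPC, and without the dividing cluster 4 in microglia. The cause of these shifts was not tested.

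Leaving out 1 library gave 2 to 4 members called in all nuclei (2 without either NS library), 0 to 2 in neurons (2 without COL replicate 2), 1 to 3 in oligodendrocytes (1 without NS replicate 2), 1 to 2 in astrocytes (1 without NS replicate 1 or COL replicate 2), 0 to 2 in OPC (0 without NS replicate 1, 1 without NS replicate 2), 1 to 1 in microglia and 0 to 1 in vascular nuclei (1 without NS replicate 2). It gave 1 to 17 pathway genes in all nuclei (1 without NS replicate 1, 3 without NS replicate 2 or COL replicate 1, 17 without COL replicate 2), 0 to 8 in neurons (8 without COL replicate 2), 3 to 18 in oligodendrocytes (3 without NS replicate 1, 18 without COL replicate 2), 1 to 7 in astrocytes (1 without NS replicate 1), 2 to 8 in OPC (2 without either NS library, 8 without COL replicate 2), 3 to 9 in microglia (3 without NS replicate 1) and 0 to 0 in vascular nuclei. The COL effect differed between cell types for 2 to 3 members.

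The labels do not say whether replicate numbers pair the libraries. Same-numbered libraries correlated at between -0.088 and 0.159 in their deviations, which cannot decide this with 2 libraries per group. With the replicate block, 14 pathway genes were called in oligodendrocytes, 5 members in all nuclei (Jag2 added, adjusted p = 0.0402, edgeR) and 3 in OPC (Dll1 added, adjusted p = 0.0332, edgeR), and no member call was lost.

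Directions turned in comparisons that were not called. Over all nuclei, weighting to the NS makeup took the log2 fold change of Jag1 in plain CPM from 0.51 to -0.05. That of Notch4 went from 0.06 to -0.31. With plain totals, the log2 fold change was -0.012 for Jag1 and -0.11 for Dll1 in neurons and -0.047 for Notch2 in microglia. In astrocytes, resolution 0.4 gave -0.065 for Notch2 and 0.16 for Jag2, and typing by own markers gave 0.047 for Jag2. Leaving out 1 library gave ranges that crossed 0. In neurons they were -0.10 to 0.42 for Notch1, -0.13 to 0.29 for Jag1 and -0.18 to 0.20 for Dll1, and in oligodendrocytes -0.81 to 0.19 for Notch3, -0.43 to 0.14 for Jag2 and -1.05 to 0.31 for Dll1. For Jag2 they were -1.57 to 0.24 in astrocytes, -1.14 to 0.35 in OPC and -0.37 to 0.16 in microglia. Microglia also had -0.078 to 0.13 for Notch2 and -0.45 to 0.14 for Notch4, and vascular nuclei -0.62 to 0.82 for Notch2.

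With nuclei past 2 gates left out, vascular levels were computed but the groups were not tested, as COL replicate 1 then had 17 nuclei. The few nuclei of vessels and of COL astrocytes limit the depth behind Dll4, Notch4 and Jag2.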
